A study of Mus musculus with 6 samples.

Results

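The 10 genes described here belong to cholesterol efflux and lipoprotein biology: the lipid exporters *Abca1*, *Abca2*, *Abca3* and *Abcg1*, the secreted lipid carriers *Apoe*, *Clu* and *Apod*, the sterol-sensing nuclear receptors *Nr1h2* and *Nr1h3*, and the lipoprotein receptor *Scarb1*. They were chosen by the measured FPKM of *Abca1*, which was lower after quinpirole in these same libraries, so its difference is given as a description with no test. All 10 were found by gene symbol among the 17193 gene rows of the deposited tables, and all 10 passed the filter of a mean of at least 1 FPKM (fragments per kilobase of exon, scaled to library size, a level corrected for gene length) that left 12255 genes for testing.

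The libraries came from astrocytes of C57BL/6 wild-type mice aged 3 months, taken from brain with magnetic beads against ACSA-2, a surface antigen encoded by *Atp1b2*. Mice were either mock treated or given quinpirole, an agonist of the dopamine receptor DRD2, with 3 libraries in each group, and no transgene or deletion was carried by either group. The dose and duration for these mice are not given in the sources used here. Nothing states that the 3 libraries of a group came from separate mice, so p-values measure the spread between these libraries, which may be technical.

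Cholesterol does not cross from blood into the brain in useful amounts, and astrocytes make and export much of what neurons receive. ABCA1 and ABCG1 load cholesterol and phospholipid onto apolipoproteins, chiefly APOE, and the particles are taken up by neighbouring cells. Transcription of *Abca1*, *Abcg1* and *Apoe* is driven by the liver X receptors LXRα (*Nr1h3*) and LXRβ (*Nr1h2*), which bind oxysterols, pair with retinoid X receptors and sit on direct repeats of a hexamer spaced by 4 bases.

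The stretches upstream of the start sites of the *Abca* genes are shown because their 3 levels were lower in every quinpirole library, and 1 of *Srebf1*, an LXR target outside the 10 genes that was also lower, because it holds a match to set beside that of *Abca1*. The sequences are RefSeq, build GRCm38.p6, 250 bases before the annotated start, read 5′ to 3′ on the strand of the gene: *Abca1* at chr4:53159896-53160145 (minus strand), *Abca2* at chr2:25428349-25428598 (plus strand), *Abca3* at chr17:24351773-24352022 (plus strand) and *Srebf1* at chr11:60210472-60210721 (minus strand, 1 of its 3 windows). Capitals mark matches to 4 motifs searched on both strands: the LXR direct repeat (AGGTCA, 4 bases of any kind, AGGTCA) with up to 3 mismatches, the E-box CACGTG, the GC box GGGCGG and TATAAA.
Abca1: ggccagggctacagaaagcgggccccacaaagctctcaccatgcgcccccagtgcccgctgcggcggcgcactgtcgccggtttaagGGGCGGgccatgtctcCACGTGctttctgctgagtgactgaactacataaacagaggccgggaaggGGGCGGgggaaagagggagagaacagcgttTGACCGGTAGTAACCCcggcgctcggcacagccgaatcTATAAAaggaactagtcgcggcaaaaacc
Abca2: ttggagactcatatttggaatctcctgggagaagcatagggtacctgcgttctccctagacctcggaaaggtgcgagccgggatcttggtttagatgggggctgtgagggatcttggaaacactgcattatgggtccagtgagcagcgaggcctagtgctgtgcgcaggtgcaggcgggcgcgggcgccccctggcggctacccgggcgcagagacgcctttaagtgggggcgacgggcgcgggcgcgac
Abca3: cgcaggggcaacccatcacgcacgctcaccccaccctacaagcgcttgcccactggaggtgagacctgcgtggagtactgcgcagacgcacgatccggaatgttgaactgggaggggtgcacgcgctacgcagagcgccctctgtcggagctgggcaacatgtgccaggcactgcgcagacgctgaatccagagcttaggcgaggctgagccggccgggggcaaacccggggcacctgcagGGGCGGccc
Srebf1: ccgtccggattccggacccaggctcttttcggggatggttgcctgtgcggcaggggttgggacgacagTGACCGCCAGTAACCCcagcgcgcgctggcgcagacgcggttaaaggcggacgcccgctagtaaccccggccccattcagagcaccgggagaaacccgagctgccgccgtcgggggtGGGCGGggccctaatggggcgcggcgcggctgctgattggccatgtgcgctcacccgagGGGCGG

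The window searched was 300 bases, 250 before and 50 after the start, and 7 of the 10 genes had one. None was matched for *Abcg1*, *Clu* and *Scarb1*. *Abca1* was the 1 of 7 with a match to the direct repeat, at -67 to -52 from the start on the opposite strand, where it reads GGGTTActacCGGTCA with 3 mismatches. Of all 32851 RefSeq windows of this length 21.9% held such a match, and 3.02% held one with up to 2 mismatches. *Abca1* also held an E-box at -147 to -142, GC boxes at -163 to -158 and -97 to -92, and TATAAA at -29 to -24, motifs found in 7.15%, 35.7% and 13.6% of all windows. The *Srebf1* match, at -182 to -167, reads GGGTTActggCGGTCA with 3 mismatches, and the other 2 windows of *Srebf1* held none. The window of *Abca7*, which was lower too, also held no direct repeat. *Abca3* held a GC box at -9 to -4, and the printed *Abca2* stretch held none of the 4 motifs. Of 33 pathway genes with a window, described further on, 6 held the direct repeat. Some genes had more than 1 window, so these counts of genes cannot be set against the share of windows. None of the matched motifs overlapped another in the printed stretches. A match is a run of letters, not a site shown to be bound.

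Total FPKM per library was 401769 to 413730 in mock and 425244 to 437164 in quinpirole, and the depth estimated from the steps between low values was 22300000 to 27700000 fragments. The astrocyte label held for most markers: *Gfap* was at 482 to 560 FPKM, *Aldh1l1* at 165 to 182 and *Slc1a3* at 186 to 215 over the 6 libraries, while *Slc1a2* was at 5.15 to 8.55 and *Gjb6* at 0.0562 to 0.281. The summed astrocyte list, 10 of 10 genes with a row, was 1164 to 1273 in mock and 1131 to 1166 in quinpirole, with *Atp1b2* and *Slc1a2* past the test threshold as lower. Microglial transcripts were abundant, the 8 of 8 markers summing to 665 to 703 in mock and 707 to 770 in quinpirole with none at 0. *Acta2* gave most of the pericyte and smooth muscle sum of 2547 to 2716 and 2732 to 2902 FPKM, which without it was 26.1 to 28.2 and 21.7 to 22.7. The remaining lists were at 161 to 181 and 168 to 179 (oligodendrocyte, *Cnp* aside 9.82 to 10.4 and 9.90 to 10.4, with *Mog* and *Mag* near 0), 144 to 161 and 143 to 151 (ependyma), 28.0 to 29.6 and 29.3 to 31.1 (choroid plexus), 17.86 to 19.96 and 20.86 to 23.88 (neuron, *Tubb3* aside 1.094 to 1.274 and 1.303 to 1.541, with *Snap25* near 0), 2.24 to 2.92 and 1.84 to 2.05 (oligodendrocyte precursor, 3 of 4 genes with a row), 1.87 to 2.38 and 1.68 to 1.87 (endothelium), 1.34 to 2.07 and 2.55 to 3.39 (perivascular macrophage) and at most 0.0106 (erythroid, 1 of 5 genes with a row). The groups did not overlap for the microglia, macrophage, neuron, pericyte and smooth muscle, endothelium and oligodendrocyte precursor sums. Without its most abundant gene the microglia sum did overlap, at 467 to 486 and 483 to 518, as did those of macrophage (0.470 to 0.799 and 0.740 to 0.919) and endothelium (0.581 to 1.06 and 0.707 to 0.792). Microglial markers did not all lean the same way: *Csf1r*, at 54.0 to 57.5 and 48.3 to 51.4, and *Cx3cr1*, at 33.9 to 37.7 and 32.5 to 33.5, lay lower without overlap but did not pass the test. Microglia and macrophages also express *Apoe*, *Abca1*, *Abcg1* and *Nr1h3*, and the part of these cells in the values below was not tested. In bulk samples fewer cells of a type and less RNA per cell cannot be told apart.

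All 4 exporters had lower means in the quinpirole group, and 3 of them, *Abca1* included, did not overlap between the groups, against 16.9% of all 12255 tested genes with every quinpirole library below every mock library. Nothing is read from that count, since *Abca1* was the reason for the choice. The summed level of the 4 exporters was 154 ± 3.87 FPKM (SD, n = 3) in mock and 115 ± 4.79 in quinpirole, and most of that gap came from *Abca1*. Of the 4, only *Abca1* and *Abcg1* are described above as loading apolipoproteins, and *Abcg1* overlapped between the groups.

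*Abca1* (ENSMUSG00000015243, chr4:53030787-53159895, minus strand, GRCm38), the exporter that starts particle formation by passing cholesterol to lipid-poor apolipoproteins, was at 81.0, 83.2 and 78.2 FPKM in mock and 56.7, 50.9 and 57.0 in quinpirole. All 3 quinpirole libraries lay below all 3 mock libraries, with a gap far wider than the range inside either group. The mean went from 80.8 ± 2.52 to 54.9 ± 3.44, a ratio of 0.680 and a log2 difference of -0.55 (SE 0.05) on the log2(FPKM + 1) scale. Each library held an estimated 13054 or more *Abca1* fragments.

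*Abca2* (ENSMUSG00000026944, chr2:25428703-25448540, plus strand), an endolysosomal transporter known from myelin-forming cells, was at 23.4, 23.6 and 22.6 FPKM in mock and 19.5, 18.4 and 19.8 in quinpirole. Again no quinpirole library reached the lowest mock library, and the log2 difference was -0.26 (SE 0.05, 95% interval -0.36 to -0.15).

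*Abca3* (ENSMUSG00000024130, chr17:24351950-24410201, plus strand), best known for loading phospholipid into lamellar bodies of lung, was at 42.6, 40.7 and 38.1 FPKM in mock and 35.9, 32.1 and 34.5 in quinpirole. The groups lay apart by a narrower margin, with a log2 difference of -0.24 (SE 0.06, interval -0.37 to -0.10). Its longest transcript shares 2.26% of its 50-base words with *Abca17*, and 9.75% of its exonic length overlaps D330041H03Rik on the opposite strand, so reads of these may be mixed, since strand is not stated.

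*Abcg1* (ENSMUSG00000024030, chr17:31057675-31117988, plus strand), which adds cholesterol to particles already formed, was at 8.21, 10.2 and 11.2 FPKM in mock and 6.01, 8.33 and 6.65 in quinpirole. The groups overlapped, since quinpirole replicate 2 was above mock replicate 1. Its log2 difference of -0.44 (SE 0.13, interval -0.76 to -0.13) was larger than those of *Abca2* and *Abca3* but came with a wider spread, 15.6% of the mean in mock and 17.1% in quinpirole, against a counting error of 3.40%.

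**Figure D1:**
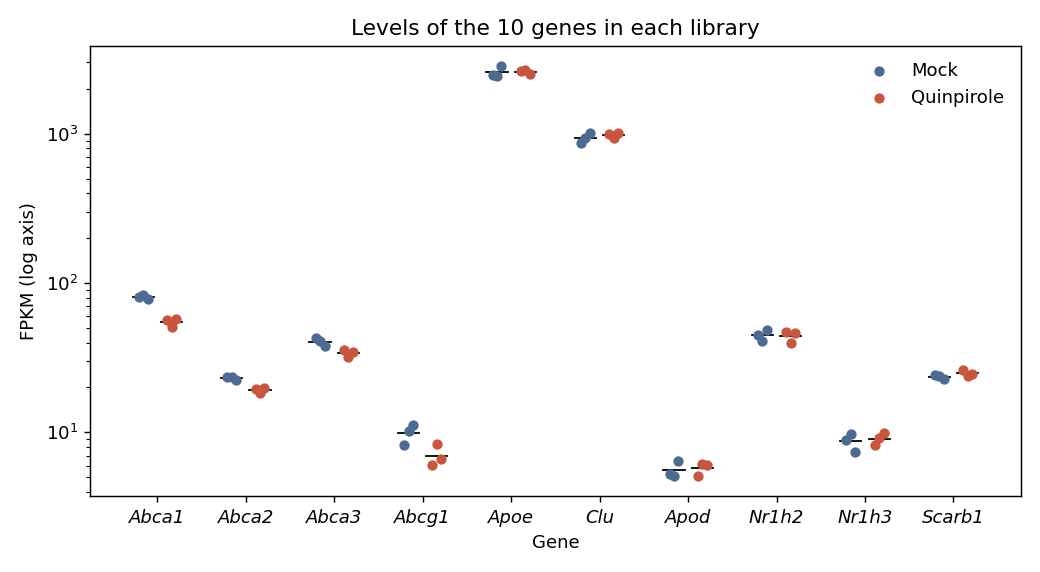
FPKM of the 10 genes in each of the 6 libraries on a log axis, with 3 mock and 3 quinpirole points per gene and a bar at each group mean. *Apoe* and *Clu* stand far above the rest, and *Abca1*, *Abca2* and *Abca3* are the genes whose points do not overlap between groups.

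The apolipoproteins did not separate the groups. *Apoe* (ENSMUSG00000002985, chr7:19696109-19699188, minus strand), the main brain lipoprotein component, was at 2491, 2439 and 2824 FPKM in mock and 2636, 2661 and 2516 in quinpirole, and every quinpirole value lay inside the mock range. It made up 0.592% to 0.683% of all FPKM in a library and ranked 8 to 10 among all genes. The log2 difference was 0.01 (SE 0.06, interval -0.14 to 0.16).

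*Clu* (ENSMUSG00000022037, chr14:65968483-65981547, plus strand), clusterin, a secreted chaperone also known as apolipoprotein J, was at 862, 933 and 1013 FPKM in mock and 997, 935 and 1007 in quinpirole. Its quinpirole values also lay inside the mock range, with a log2 difference of 0.07 (SE 0.06, interval -0.08 to 0.22). *Apod* (ENSMUSG00000022548, chr16:31296192-31314808, minus strand), a lipocalin that binds small lipids, was the lowest of the 10 genes, at 5.30, 5.14 and 6.47 FPKM in mock and 5.12, 6.16 and 6.03 in quinpirole. It rested on as few as 279 estimated fragments in a library, and its difference was 0.03 (SE 0.10, interval -0.20 to 0.26).

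The sterol-sensing receptors did not separate the groups either. *Nr1h2* (ENSMUSG00000060601, chr7:44549616-44553951, minus strand) was at 44.7, 40.8 and 48.5 FPKM in mock and 47.3, 39.8 and 46.5 in quinpirole, a log2 difference of 0.00 (SE 0.08, interval -0.20 to 0.19). *Nr1h3* (ENSMUSG00000002108, chr2:91184061-91202834, minus strand) was at 8.90, 9.82 and 7.40 FPKM in mock and 8.26, 9.11 and 9.90 in quinpirole, a difference of 0.06 (SE 0.10, interval -0.18 to 0.30). LXRβ transcripts were thus the more abundant of the pair in every library. The receptors summed to 50.6 to 55.9 FPKM in mock and 48.9 to 56.5 in quinpirole.

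*Scarb1* (ENSMUSG00000037936, chr5:125277087-125341094, minus strand), the receptor that exchanges cholesterol esters with high-density lipoprotein, was at 24.3, 23.8 and 22.9 FPKM in mock and 26.1, 24.0 and 24.8 in quinpirole. The groups overlapped, with a log2 difference of 0.07 (SE 0.05, interval -0.04 to 0.18).

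**Figure D2:**
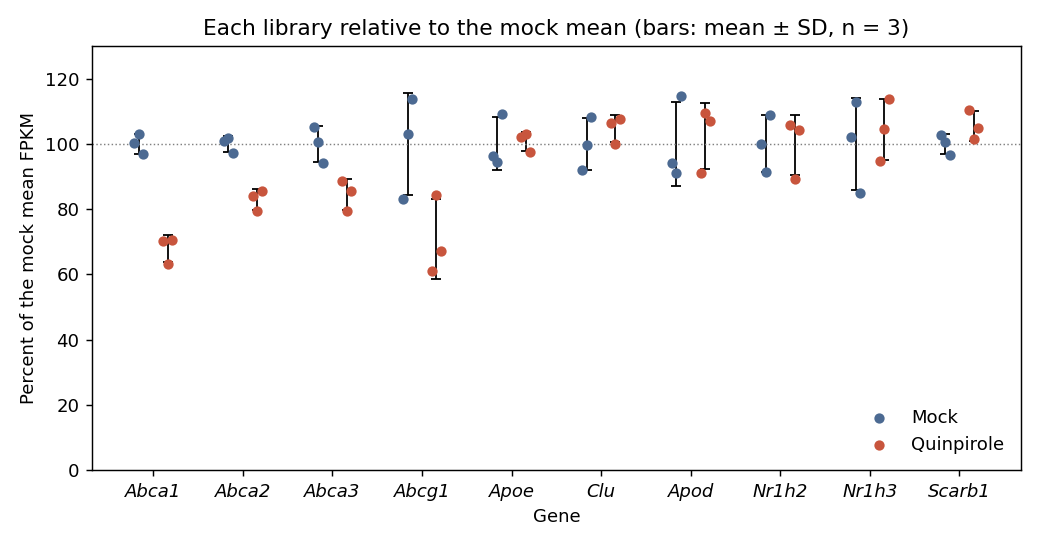
Each library of the 10 genes as a percent of that gene's mock mean, with bars for the mean ± SD of 3 libraries. *Abca1* has the lowest mean, at a ratio of 0.680, the lowest single library being quinpirole replicate 1 of *Abcg1*, while *Apoe*, *Clu*, *Apod*, *Nr1h2*, *Nr1h3* and *Scarb1* straddle the mock mean or lie close to it.

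Ordered by mean FPKM in mock, the genes ran *Apoe*, *Clu*, *Abca1*, *Nr1h2*, *Abca3*, *Scarb1*, *Abca2*, *Abcg1*, *Nr1h3*, *Apod*. Neighbours whose mock libraries overlapped, and so did not differ beyond their spread, were *Nr1h2* and *Abca3*, *Scarb1* and *Abca2*, and *Abcg1* and *Nr1h3*. In quinpirole the order was the same except that *Nr1h3* stood above *Abcg1*, and there *Nr1h2* cleared *Abca3* and *Scarb1* cleared *Abca2*, while *Nr1h3* overlapped *Abcg1* and *Abcg1* overlapped *Apod*. *Clu* was 11.6 times *Abca1* in mock and 17.9 times in quinpirole, and *Apoe* was 2.76 and 2.66 times *Clu*.

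In limma's fit over all genes, 2 of the 9 genes other than *Abca1* fell past the adjusted p of 0.05: *Abca2* (adjusted p = 0.0251) and *Abca3* (adjusted p = 0.0449). *Abcg1* missed it by limma, with an adjusted p = 0.0717, and the limma adjusted p was 0.321 for *Scarb1*, 0.508 for *Clu*, 0.723 for *Nr1h3*, 0.851 for *Apod*, 0.904 for *Apoe* and 0.980 for *Nr1h2*. Of all 12255 genes 10.9% were past that threshold, 5.18% as lower (635) and 5.74% as higher (704). Because the genes were grouped for what this same contrast showed of *Abca1*, nothing is read from this count either. Beside the 635 lower and 704 higher genes, quantile normalisation gave 500 lower and 283 higher, and equal FPKM sums, chosen after seeing the data, gave 1236 lower and 220 higher. Leaving out any library other than mock replicate 3 ended both calls, with 0 of the 9 genes called by limma and 3 at an unadjusted p under 0.05. Those fits called 3 to 214 of all tested genes, against 1339 with every library.

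Gene length moved with the differences. Over 12223 genes with a length, Spearman's rho between exonic length and log2 difference was -0.475, a relation across genes, which are not independent replicates. The median difference was 0.116 in the shortest of 5 equal bins of genes by length, which holds *Apoe*, 0.0622 in the next, which holds *Clu*, *Apod*, *Nr1h2* and *Nr1h3*, -0.0343 in the one that holds *Abcg1* and -0.107 in the longest, which holds *Abca1*, *Abca2*, *Abca3* and *Scarb1*. With that trend removed by a loess curve, *Abca1* stood at -0.45, *Abca2* at -0.19 (limma adjusted p = 0.0428), *Abca3* at -0.15 (adjusted p = 0.0885), *Abcg1* at -0.39 (adjusted p = 0.145) and *Scarb1* at 0.15 (adjusted p = 0.0699). *Scarb1* was not lower in either form. Its exonic length was close to that of *Abca2*, at 8500 against 8346 bases, but its longest transcript was 3093 bases against 8033. The bins and the curve used exonic length, which merges the exons of all transcripts of a gene. The bin and the corrected value of *Scarb1* thus rest on the larger figure. Within the groups, mock replicate 3 and quinpirole replicate 2 tilted the same way, their deviations from their own group mean having a rho with length of -0.36 and -0.35 against 0.18 to 0.21 in the other libraries. Mock replicate 3 held the lowest mock value of *Abca1*, *Abca2*, *Abca3*, *Nr1h3* and *Scarb1* and the highest of the 5 remaining genes, and quinpirole replicate 2 held the lowest quinpirole value of 6 genes, among them the same *Abca* genes and *Scarb1*.

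**Figure D3:**
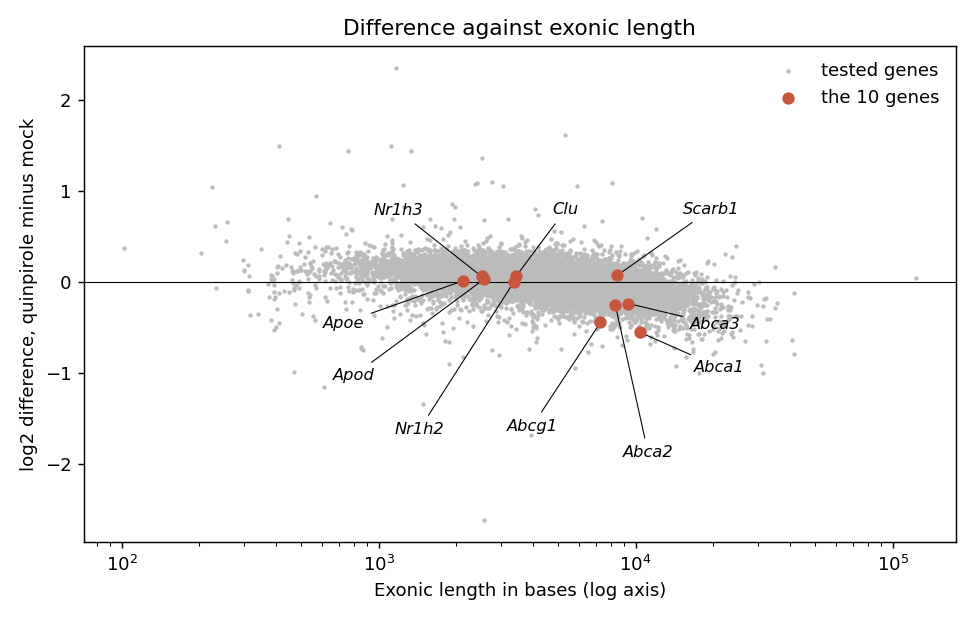
Log2 difference, quinpirole minus mock, against exonic length in bases on a log axis, for the tested genes in grey and the 10 genes in colour. The cloud falls with length at a rho of -0.475. Among the 10 genes *Abca1* and *Abcg1* lie furthest below its centre, and *Abca2* and *Abca3* lie below it by less.

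The pathway around the 10 genes was read from 6 lists holding 46 other genes, of which 38 were tested. Past 0.05, 1 was higher and 7 were lower, with 30 not past it, against 5.74% of all tested genes higher and 5.18% lower. The median difference was -0.07 against 0.02 over all genes. After the length correction 5 were lower and 1 higher, against 2.07% and 2.09% of all 12223 genes, and 4 genes were called in both. The lists were chosen with earlier results of these data known, so nothing is read from these counts.

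Among 8 other LXR targets 2 fell. *Srebf1*, the master regulator of fatty acid synthesis, was at 125 ± 10.7 FPKM in mock and 96.0 ± 7.44 in quinpirole (log2 difference -0.37, limma adjusted p = 0.0303). *Scd1*, a desaturase that SREBF1 drives, went from 87.7 ± 2.75 to 73.7 ± 1.46 (-0.25, limma adjusted p = 0.0228). *Pltp*, which moves phospholipid between particles, was at 125 and 118 (-0.08, limma adjusted p = 0.218), and with the length correction at -0.16 (adjusted p = 0.0415). *Mylip*, the ligase that sends lipoprotein receptors to degradation, is named here after its values were seen: it was at 5.80 and 4.90 (-0.20, limma adjusted p = 0.0604), and at -0.26 with the length correction (adjusted p = 0.0448). *Smpdl3a*, a secreted phosphodiesterase also named after its values were seen, leaned the other way, at 56.9, 58.7 and 62.6 FPKM in mock and 66.5, 68.4 and 65.3 in quinpirole. Its groups did not overlap, with a difference of 0.17 (limma adjusted p = 0.0547), and 0.07 with the length correction (adjusted p = 0.207). The rest of this list did not pass either. *Lpcat3* was at 41.9 and 41.3 FPKM (-0.02, limma adjusted p = 0.839) and *Arl4c* at 48.5 and 46.8 (-0.05, limma adjusted p = 0.441). *Lpl* was at 27.5 and 25.3 (-0.12, limma adjusted p = 0.177), and at -0.02 with the length correction.

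Among 6 tested of 9 other ABCA and ABCG transporters 1 fell, *Abca7*, a phospholipid exporter close to *Abca1*, from 8.83 ± 0.433 to 6.92 ± 0.149 FPKM (-0.31, limma adjusted p = 0.0251). *Abcg2* differed by 0.12 (0.02 without quinpirole replicate 2, 0.05 without mock replicate 3, 0.08 without mock replicate 2 and 0.23 without mock replicate 1) and *Abcg4* by -0.05, neither past 0.05. Of 6 tested LXR partners and cofactors 3 fell, among them the corepressor *Ncor1* (41.6 to 34.9 FPKM, -0.25) and the coactivator *Ncoa2* (10.5 to 8.62, -0.26), and none of the 6 passed after the length correction, where *Ncor1* was at -0.10 and *Ncoa2* at -0.06. *Rxrb*, a partner of the LXRs, was at -0.02.

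None of the 4 oxysterol enzymes passed by limma at an adjusted 0.05. *Ch25h*, which makes the oxysterol 25-hydroxycholesterol, was at 10.6 and 8.71 FPKM (-0.26, and -0.12 without mock replicate 3), *Cyp46a1* at 8.84 and 8.01 (-0.13), and *Cyp7b1*, which clears oxysterols, at 2.42 and 3.01 (0.23). Neither of the 2 tested lipoprotein genes passed: *Lcat*, which esterifies particle cholesterol, was at 32.0 and 35.4 (0.14, but 0.08 without mock replicate 3 and 0.02 with the length correction) and *Apoc1* differed by 0.03. Of 12 sterol transport and storage genes, *Npc2*, which hands cholesterol out of the lysosome, rose from 71.8 ± 2.94 to 84.5 ± 3.48 FPKM (0.23, limma adjusted p = 0.0296) and *Gramd1c*, a membrane sterol shuttle, fell from 1.35 to 0.807 (-0.37, limma adjusted p = 0.0427). At so low a level the pseudocount weighs on the size: the ratio of the means was 0.599 and the difference -0.67 with a pseudocount of 0.1, and the call was lost with the length correction (adjusted p = 0.0573). *Lipa* and *Gramd1a* differed by 0.01 and -0.03. The pathway calls also changed when a library was left out. Without mock replicate 1, mock replicate 2, quinpirole replicate 1 or quinpirole replicate 2, 0 of 38 remained past 0.05. There were 2 without quinpirole replicate 3 and 7 without mock replicate 3. The 0 counts stand beside 12 to 14 genes at an unadjusted p under 0.05 by limma. Those same fits called 3 to 25 of all tested genes, against 1339 with every library, so the loss was not particular to these lists.

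**Figure D4:**
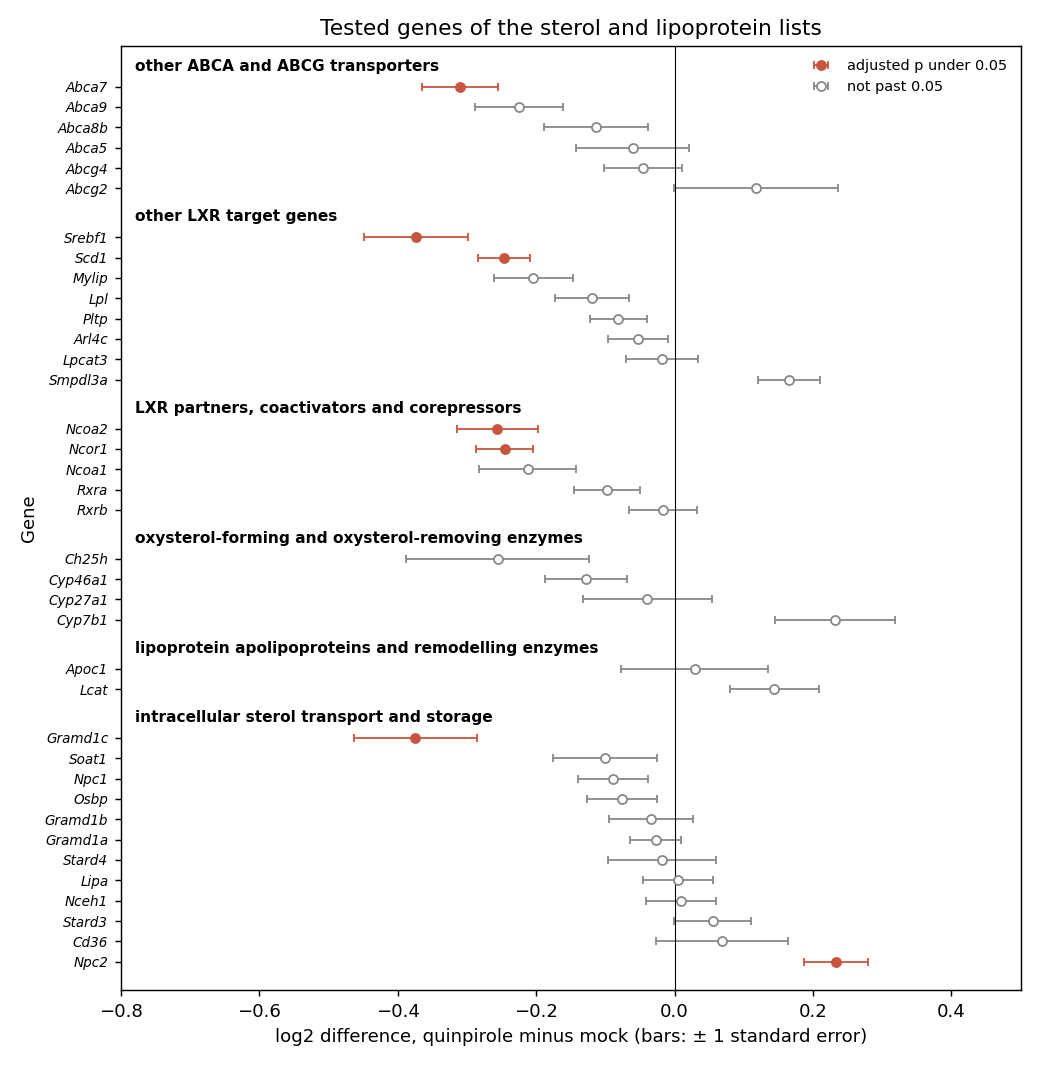
Log2 difference, quinpirole minus mock, for 37 of the 38 tested genes of the 6 pathway lists, with bars of 1 standard error and filled points for an adjusted p under 0.05 by limma. The filled points are 6 below 0 and *Npc2* above it, and none is an oxysterol enzyme.

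Likeness of pattern was measured by Pearson's r of log2(FPKM + 1) over the 6 libraries, as a description. The genes nearest to *Abca1* were *Vezf1* and *St8sia2* (r = 0.999 each), *Notch2* (0.999), *Notch1* (0.998) and *Bod1l* (0.998), and 505 genes had r over 0.95. *Notch1* was at 28.8 FPKM in mock and 19.6 in quinpirole and *Notch2* at 28.5 and 18.8. Since *Abca1* was chosen for its group difference, genes that differ between the groups are near it by construction. For *Apoe* 19 genes had r over 0.95, led by *Cyb561d2* (0.988), *Syp* (0.985), *Yy1* (0.985), *Rp9* (0.983) and *Flywch2* (0.980), and none of these 5 differed in mean by more than 1 FPKM between groups.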

How the data were processed

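Gene levels were measured by poly(A) RNA-seq in 3 mock and 3 quinpirole libraries of ACSA-2-sorted mouse astrocytes. Per the labels and the study's methods the authors mapped paired reads with TopHat2 to GRCm38 and deposited FPKM per gene and library. The FPKM program, annotation and TopHat2 version are not given in the sources used here. FPKM hides read counts, and the depths are estimates from the steps of low values, of which 57.6% to 66.9% lay within 0.1 of a whole fragment, so no count test was run.

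The 17193 gene IDs were matched to symbols (17090 found), gene models were GENCODE M21 (GRCm38) and promoter windows RefSeq (GRCm38.p6). Values were log2(FPKM + 1) for genes with mean FPKM of at least 1. limma 3.58.1 in R 4.3.3 (trend, two-sided, Benjamini-Hochberg over 12255 genes) was checked on simulated data. Fold changes on this scale understate low genes. The length correction was a loess curve (span 0.3). Python 3.11.15 drew the figures. The alternatives were other pseudocounts, filters, scalings, variance models, a replicate block, the length correction and leaving out each library.

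The 10 genes and the lists were chosen with earlier results of these data known. Named genes were the 10 genes, pathway genes past 0.05, the 3 highest tested of each list, astrocyte markers, *Mylip* and *Smpdl3a* (after their values were seen) and the 5 nearest to *Abca1* and *Apoe*, with 1 pathway gene and 1 marker counted but not reported here.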

Additional observations from a re-analysis of the deposited data

How the results depend on the processing

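The count of genes past 0.05, 1339, was 633 with no filter, 783 with quantile normalisation, 714 without the variance trend, 509 with the length correction, 456 with that and equal FPKM sums (chosen after seeing the data), and 3 to 1182 leaving out each library in turn. Of the 9 tested genes of the set, 2 in the reported fit, 1 was past 0.05 with no filter, without the trend, with the length correction and with that and equal sums, and 0 to 2 leaving out a library. Of the 38 pathway genes, 8 in the reported fit, 4 passed with no filter and 0 to 7 leaving out a library. The replicate block gave 2 genes, 0 of the set and 0 pathway genes, and with the length correction 0, 0 and 0, with 3308 and 2723 genes, 3 and 4 of the set and 13 and 10 pathway genes at an unadjusted p under 0.05 by limma. Same-numbered libraries did not deviate together (correlations 0.026, -0.066 and -0.103). With 3 libraries per group, whose deviations sum to 0, these correlations cannot exclude that the numbers pair them.

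Differences near 0 changed sign. *Apoe* was -0.0063 with quantile normalisation, -0.0775 with the length correction (also blocked), -0.0681 with equal sums and -0.0867 with both, and -0.0266 to 0.0791 leaving out a library. *Clu* was -0.0345 (quantile) and -0.0142 (equal sums). *Apod* was -0.0437 with the length correction (also blocked), -0.0378 with equal sums and -0.0407 with both, and -0.0218 to 0.12 leaving out a library. *Nr1h2* ranged from -0.0665 to 0.0732 that way. *Nr1h3* was -0.0175 with the length correction (also blocked), -0.0134 with equal sums and -0.0188 with both, and -0.04 to 0.14 leaving out a library. *Scarb1* was -0.005 with equal sums. *Apoc1* was -0.11 with the length correction (also blocked), -0.0352 with equal sums, -0.10 with both, and -0.0615 to 0.10 leaving out a library. *Lipa* was -0.0075 with median ratio scaling, -0.0347 (quantile) and -0.0739 (equal sums), and -0.043 to 0.0371 leaving out a library. *Rxrb* ranged from -0.0431 to 0.0198 that way. The causes were not tested. *Abca1* stayed between -0.63 and -0.45, *Abca2* between -0.34 and -0.19, *Abca3* between -0.32 and -0.15 and *Abcg1* between -0.56 and -0.35 under every alternative run. *Abcg1* passed with equal sums (limma adjusted p = 0.0391). *Gramd1c* has no value with a minimum of 5 FPKM or without mock replicate 3, where it was not tested.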
